A study of Mus musculus with 12 samples.

Results

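Glycolysis is the cytosolic pathway that breaks glucose down to pyruvate. The 10 genes described here encode enzymes of that pathway: the hexokinases Hk1 and Hk2, glucose-6-phosphate isomerase (Gpi1), the platelet-type phosphofructokinase (Pfkp), aldolase A (Aldoa), triosephosphate isomerase (Tpi1), glyceraldehyde-3-phosphate dehydrogenase (Gapdh), phosphoglycerate kinase (Pgk1), pyruvate kinase (Pkm) and the A subunit of lactate dehydrogenase (Ldha). They were taken by gene symbol, and all 10 were found among the 15217 genes of the deposited table. All 10 passed the filter on low counts. Hexokinase traps glucose in the cell, phosphofructokinase makes the committed step, and the later enzymes return ATP and make pyruvate, which lactate dehydrogenase turns into lactate. Several of these genes are known targets of hypoxia-inducible factor, and proliferating fibroblasts are known to express most of them at high levels.

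The cells were NIH-3T3, an established mouse fibroblast line with the genotype given as WT, and 4-thiouridine (4sU) was added for 2 h at 200 or 800 µM, or left out. This uridine analogue enters newly transcribed RNA. SLAM-seq uses iodoacetamide to alter the incorporated 4sU, which sequencing then reads as C. That chemistry was run either on purified RNA in a tube or on intact cells fixed with methanol. The 6 groups (tube and fixed, each with no 4sU, 200 µM and 800 µM) held 2 libraries each, A and B. The labels do not say that A and B came from separate cultures, so p-values measure the spread between libraries, which may be technical. The title of the series asks how conversion in fixed cells compares with conversion in tubes in the bias it leaves on the measurements. All groups are 1 cell line in 1 growth medium. Fewer cells of a kind and less RNA per cell cannot be told apart in such bulk libraries.

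Library totals ranged from 3629634 to 7762635 counts. Together the 10 genes held 0.427% to 0.501% of the counts of a library. All 12 fibroblast genes checked reached a count of 10 in some library. Lum stayed at or below 3.37 CPM (counts scaled to the library total after adjustment by its scaling factor). The summed epithelial, endothelial and muscle markers stayed at or below 1.54 CPM. Summed leukocyte markers ran from 6.15 to 15 CPM, nearly all from Cd68 and Csf1r with Ptprc at or below 0.146, and neuronal markers from 4.13 to 10.9 CPM, from Tubb3 and Snap25. The part of these markers in the results was not tested. Library A of the fixed 800 µM group stood apart: its scaling factor was 0.835 and its position on the first principal component 45.4, against 0.926 to 1.01 and 21.4 to 34.8 for the other 5 fixed libraries. Its median new-to-total ratio was 25.95%, the lowest of the 8 labelled libraries. The folds of Gapdh, Pgk1, Pkm, Ldha, Eno2 and Slc2a1 at 800 µM in fixed cells, and the medians of that group, are given with and without it.

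Promoter sequences are shown for 3 of the genes, chosen after their values were seen because Hk2, Pgk1 and Ldha illustrate the different patterns below and their windows overlap no annotated exon. Each is the 250 bases before a transcript start, 5′ to 3′ on the gene's own strand, from RefSeq on GRCm38.p6. For Hk2 and Pgk1 the window ends where the GENCODE M21 gene begins. For Ldha it lies before 1 of 2 RefSeq starts and inside the wider GENCODE M21 span of the gene. Capitals mark ACGTG or GCGTG on either strand, the core letters of the hypoxia response element, and where ACGTG lies in the palindrome CACGTG it is counted on both strands. The windows are chr6:82774455-82774704 (minus strand) for Hk2, chrX:106186850-106187099 (plus strand) for Pgk1 and chr7:46845554-46845803 (plus strand) for Ldha.
Hk2: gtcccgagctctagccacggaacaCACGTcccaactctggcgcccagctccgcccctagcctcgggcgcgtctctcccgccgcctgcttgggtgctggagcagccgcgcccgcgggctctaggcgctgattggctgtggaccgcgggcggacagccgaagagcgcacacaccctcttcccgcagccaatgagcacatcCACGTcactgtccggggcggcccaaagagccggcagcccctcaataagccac
Pgk1: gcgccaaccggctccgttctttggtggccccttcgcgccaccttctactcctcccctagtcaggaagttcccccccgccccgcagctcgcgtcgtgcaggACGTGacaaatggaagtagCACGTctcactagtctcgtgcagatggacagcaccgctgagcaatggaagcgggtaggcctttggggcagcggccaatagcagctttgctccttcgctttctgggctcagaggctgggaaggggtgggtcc
Ldha: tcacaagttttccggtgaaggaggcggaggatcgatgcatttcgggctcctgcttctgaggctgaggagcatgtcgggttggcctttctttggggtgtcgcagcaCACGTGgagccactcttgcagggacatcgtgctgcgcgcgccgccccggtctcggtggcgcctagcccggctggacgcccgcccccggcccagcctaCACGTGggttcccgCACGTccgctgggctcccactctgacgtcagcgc
The core began 226 and 52 bases before the start in Hk2 and 150 and 131 bases before it in Pgk1. In Ldha it was found 5 times, 4 of them in 2 copies of CACGTG. Over the 10 genes, 10 of 15 promoter windows held ACGTG or GCGTG, while 38.6% of all 32851 promoters in the table did. The GC box GGGCGG was in 9 of the 15 windows and in 32.7% of all promoters, and TATAAA was in 0 of 15 and in 12.4%. CACGTG was in 1 of the 15 windows, that of Ldha, and in 6.0% of all. Windows of 1 gene can overlap, as they do for Aldoa, and a match of letters is a description, not a binding site.

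On GRCm38, by GENCODE M21, Hk2 lies at chr6:82725025-82774454 (minus strand, 18 exons), Gapdh at chr6:125161715-125166467 (minus, 7 exons), Pgk1 at chrX:106187100-106203699 (plus, 11 exons), Pfkp at chr13:6579768-6648777 (minus, 22 exons) and Ldha at chr7:46841475-46855627 (plus, 8 exons). Levels in untreated cells spanned a wide range. Per kilobase of the deposited transcript length, in tubes without 4sU, Pkm had 505 ± 58.0 CPM (SD, n = 2), Aldoa 486 ± 15.3 and Ldha 387 ± 10.3. Tpi1 followed with 207 ± 12.9, Gpi1 with 109 ± 1.48, Pgk1 with 73.3 ± 1.98 and Gapdh with 51.5 ± 12.8. The hexokinases and phosphofructokinase were lowest, with Hk2 at 22.9 ± 1.30, Hk1 at 6.12 ± 1.10 and Pfkp at 2.65 ± 0.609 CPM per kilobase. Pkm and Aldoa, neighbours in this order, overlapped between their libraries (464 and 546 against 475 and 497). With the deposited lengths no other neighbours did. Among all genes Pkm, Aldoa and Ldha lay at percentiles 98.9, 98.9 and 98.6 of level per kilobase, while Pfkp lay at percentile 24.0. The places of Gapdh and Pfkp depend on the length used. The deposited length of Gapdh is 3289 bases. With the 1420 bases of its principal transcript in GENCODE M21 its level was 119 CPM per kilobase, above Pgk1 and close to Gpi1 at 121. With 4145 bases in place of 8681, the Pfkp libraries had 6.44 and 4.64 CPM per kilobase. These overlapped the 5.935 and 7.671 of Hk1. The percentile of Pfkp with the shorter length was not computed. This second scale was chosen after the first was seen. Reads of some of these genes may be shared with near copies. At 90% identity over 300 bases or more, GENCODE M21 held 177 such genes for Gapdh, of which 168 are pseudogenes and 3 are in the deposited table. It held 13 for Ldha, 8 for Pkm, 6 for Aldoa, 4 for Pgk1, 2 for Tpi1, 1 each for Gpi1 and Pfkp, and 0 for Hk1 and Hk2. The one for Pfkp is its neighbour Pitrm1, which shares 748 bases with it. The sources used here do not say how the authors' counting divided such reads.

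**Figure D1:**
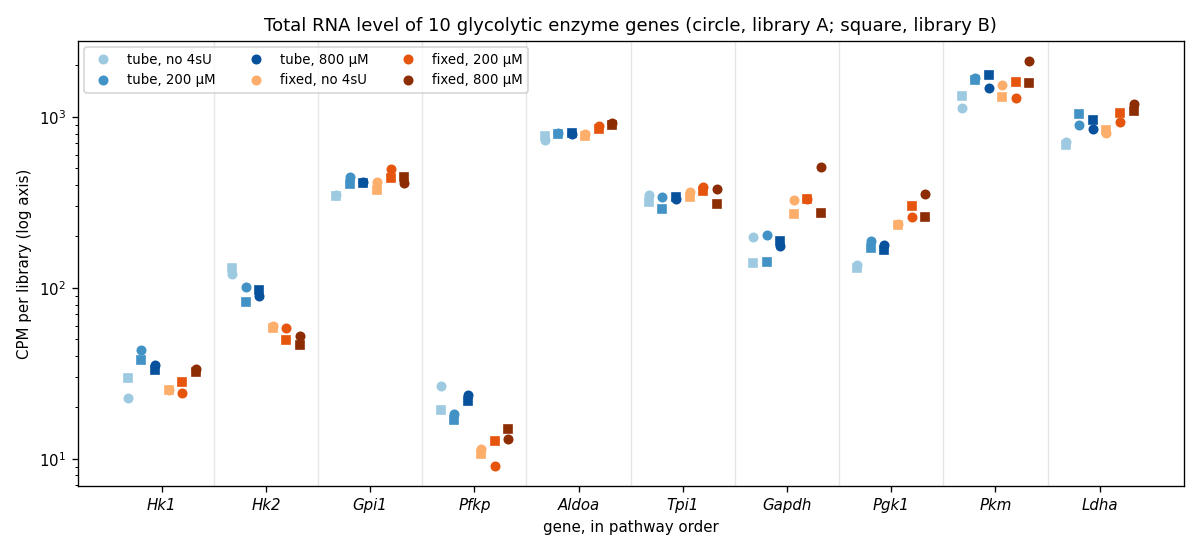
Total level of each of the 10 genes in the 12 libraries, in CPM on a log axis; colours are the 6 groups, circles library A and squares library B. Hk2 and Pfkp sit lower in the fixed libraries than in the tube libraries, and Gapdh and Pgk1 sit higher.

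Adding 4sU left none of the 10 genes past the threshold in either procedure. In tubes at 200 µM, 0 of the 10 genes passed edgeR's quasi-likelihood test, while 3.75% of the 11080 genes tested did (262 higher and 154 lower). At 800 µM in tubes 0 of 10 passed, against 1.87% of all genes (101 higher and 106 lower). In fixed cells 0 of 10 passed at 200 µM, against 0.812% (27 higher and 63 lower), and 0 of 10 at 800 µM, against 2.66% (86 higher and 209 lower). At these shares of all genes, 0 of 10 is near the background. Each group holds 2 libraries, so a fit without 1 library leaves 1 in its group and loses power. A lower count of calls in such a fit does not show that a share rests on 1 library. How far the shares depend on single libraries was therefore not settled by leaving libraries out. An unadjusted p under 0.05 was found for 6, 5, 1 and 4 of the 10 genes in these comparisons, and for 20.8%, 17.6%, 12.6% and 20.1% of all genes. DESeq2 called 1, 0, 0 and 1 of the 10, in each case Ldha, and 6.84%, 2.79%, 1.44% and 6.94% of all genes, so that its count is near the background too. When TMM scaling used only genes of low new-to-total ratio (the lowest 1 in 3, called low-ratio scaling below), the median of all genes moved from 0.033, 0.027, -0.002 and -0.001 to -0.136, -0.116, -0.114 and -0.175 on the log2 scale. The calls over all genes then became 85 higher and 450 lower, 49 and 267, 18 and 190, and 41 and 672, in the same order.

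The median log2 fold of the 10 genes was 0.189 at 200 µM and 0.182 at 800 µM in tubes, and 0.123 and 0.362 in fixed cells. Low-ratio scaling took these medians to 0.019, 0.036, 0.012 and 0.188. All of the 10 except Hk2 and Pfkp are themselves among the genes that this scaling centres. The fall of their folds under it, here and below, is thus partly built in. At 200 µM in tubes the median was 0.307 without unlabelled library A and 0.31 without labelled library B, and at 200 µM in fixed cells it was 0.046 without unlabelled library B. At 800 µM in fixed cells it was 0.215 without labelled library A. Within each procedure, both doses are set against the same 2 unlabelled libraries. Among the 10, 7 or 8 had a fold above 0 in each comparison, a count that includes values within their standard error. Among all genes with a mean new-to-total ratio under 20%, the median fold was 0.22, 0.172, 0.112 and 0.202 in the same order. Those with a ratio of 70% or more had 0.019, -0.014, -0.077 and -0.125. These class limits were chosen after the data were seen.

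Hk2, a hexokinase that binds the outer mitochondrial membrane, had the lowest fold of the 10 in all 4 comparisons. In tubes its unlabelled libraries stood at 121 and 131 CPM. The 200 µM libraries had 102 and 82.7 CPM and the 800 µM libraries 89.1 and 96.7. Both doses lay below the unlabelled libraries with no overlap. The log2 folds were -0.45 (SE 0.14) at 200 µM and -0.44 (SE 0.14) at 800 µM, with edgeR adjusted p of 0.0797 and 0.119. With low-ratio scaling, whose gene set holds most of the 10 but not Hk2, the edgeR adjusted p were 0.0228 and 0.0359. Both passed, as did 4.83% and 2.85% of all genes. In a fit of only the 2 groups compared at 800 µM Hk2 passed (adjusted p = 0.0423), as did 3.73% of all genes. In fixed cells Hk2 had 59.9 and 58.2 CPM unlabelled, then 58.7 and 49.7 at the lower dose and 52.6 and 46.5 at the higher. The log2 folds there were -0.12 (SE 0.15) and -0.26 (SE 0.15), and edgeR's adjusted p were 0.779 and 0.353.

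Hk1, the hexokinase found in most tissues, had 22.9 and 29.5 CPM in unlabelled tube libraries, 43.1 and 37.8 at the lower dose and 35.3 and 33.0 at the higher. Its labelled libraries lay above the unlabelled ones at both doses. Its log2 fold of 0.62 (SE 0.18) at 200 µM had an edgeR adjusted p of 0.0554, and that at 800 µM was 0.38 (SE 0.17, adjusted p = 0.27). In fixed cells it stood at 25.5 and 25.2, then 24.5 and 28.2, then 33.8 and 32.2 CPM from no label to the higher dose, with log2 folds of 0.05 and 0.37.

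In the middle of the pathway, Gpi1 interconverts glucose 6-phosphate and fructose 6-phosphate. Its log2 folds were 0.29, 0.26, 0.24 and 0.12 over the 4 comparisons, with standard errors of 0.12 in each. Aldoa, which splits fructose 1,6-bisphosphate, held between 736 and 928 CPM over all 12 libraries, with folds of 0.09, 0.09, 0.15 and 0.21. Tpi1, which interconverts the 2 triose phosphates, held between 291 and 389 CPM, with folds of -0.08, 0.01, 0.10 and -0.03. Both Aldoa and Tpi1 thus stayed in narrow ranges of level. Pfkp had the fewest counts, 61 to 186 a library, and folds of -0.38, -0.0043, -0.0198 and 0.35, with standard errors of 0.22 to 0.24. None of these folds passed.

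Among the enzymes of the later steps, Ldha came closest to the threshold. In unlabelled tube libraries it had 715 and 689 CPM, against 893 and 1043 at the lower dose and 847 and 954 at the higher. In fixed cells it had 801 and 840 CPM, then 938 and 1061, then 1191 and 1091. The labelled libraries were above the unlabelled ones of the same procedure in all 4 comparisons, with no overlap. The log2 folds were 0.46 (SE 0.13), 0.36 (SE 0.13), 0.28 (SE 0.13) and 0.48 (SE 0.13), and the edgeR adjusted p at 200 µM in tubes and at 800 µM in fixed cells were 0.0523 and 0.0565. DESeq2 gave adjusted p of 0.0174 and 0.00525 there, and edgeR with RLE scaling, which called 3.18% of all genes, gave 0.0412 for the second. Pkm, which makes pyruvate, had log2 folds of 0.44, 0.40, 0.02 and 0.38, and Pgk1, which yields ATP, had 0.42, 0.37, 0.26 and 0.39. Gapdh, often used as a reference gene, had 0.03, 0.11, 0.15 and 0.39.

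The fixed 800 µM comparison turned on a single library. Without library B of that group, which leaves library A as its only member and assumes that it varies like the other groups, 4 of the 10 genes passed, against 10.9% of all genes. Gapdh then had a log2 fold of 0.77 (edgeR adjusted p = 0.0083), Pgk1 0.60 (0.00634), Pkm 0.58 (0.0176) and Ldha 0.54 (0.0133). Without library A instead, 0 passed and the folds were -0.074, 0.20, 0.20 and 0.47. Gapdh had 512 CPM in library A and 274 in library B, which lies inside the range of 271 to 328 of the unlabelled fixed libraries. Over all genes 2.66% passed with both libraries, and 720 higher and 491 lower calls were made without library B.

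Whether 4sU acted differently on these genes in fixed cells and in tubes was tested as a difference of folds. At 200 µM 0 of 10 genes passed and at 800 µM 0 of 10, and 0% of all genes passed at either dose. DESeq2 called 0 of the 10 at either dose (0.153% and 0% of all genes), and an unadjusted p under 0.05 was found for 1 gene at 200 µM and for 0 at 800 µM (8.96% and 5.90% of all genes). The one gene was Hk1, whose log2 fold at 200 µM was 0.56 lower in fixed cells (-0.56, SE 0.25, edgeR adjusted p = 0.519). For the other 9 genes the differences at 200 µM lay between -0.42 (Pkm) and 0.36 (Pfkp).

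**Figure D2:**
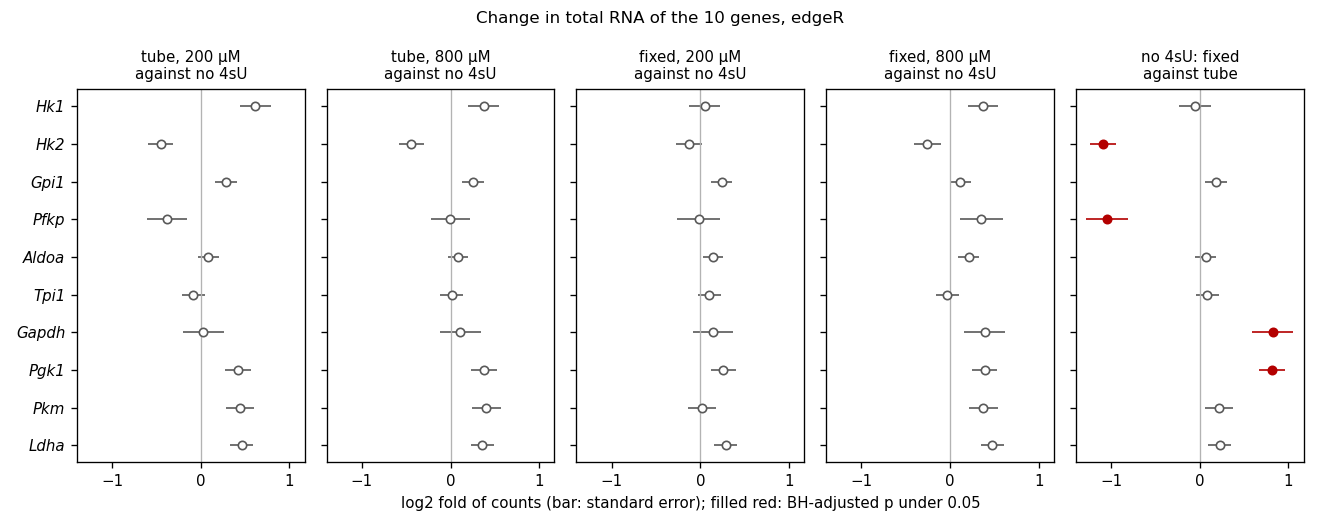
Log2 fold of counts for each gene (points) with its standard error (bars) in 5 comparisons, from edgeR; filled red points have an adjusted p under 0.05. The 4 comparisons with 4sU hold no red point, and fixed cells against tubes without 4sU hold 4, with Hk2 at -1.10 and Gapdh at 0.82 as the outermost.

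The procedure itself, compared without 4sU, set 4 of the 10 genes apart, where 31.4% of all genes passed (16.2% higher and 15.2% lower in fixed cells). The share among the 10 is therefore near the background. Over all genes 1796 were higher and 1684 lower, and with low-ratio scaling these became 799 and 3479, with a median of -0.33 in place of -0.009. Hk2 was lower in fixed cells, with 59.9 and 58.2 CPM against 121 and 131 in tubes. This was a log2 fold of -1.10 (SE 0.15, edgeR adjusted p = 3.36e-05), so that tubes held 2.14 times the level of fixed cells. Pfkp was lower as well, at 11.5 and 10.7 CPM against 26.7 and 19.2, a log2 fold of -1.04 (SE 0.24, edgeR adjusted p = 0.00259). The libraries of the procedures did not overlap for either gene.

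Pgk1 and Gapdh, which catalyse consecutive steps, were higher in fixed cells. Pgk1 had 235 and 234 CPM against 136 and 131, a log2 fold of 0.81 (SE 0.15, edgeR adjusted p = 0.000427). Gapdh had 328 and 271 CPM against 199 and 140, a log2 fold of 0.82 (SE 0.23, edgeR adjusted p = 0.0113). The ranges did not overlap for either. The log2 fold of Gapdh was 0.59 without tube library B, 1.10 without tube library A and 0.68 without fixed library A. These fits leave 1 library in a group. With low-ratio scaling its fold was 0.50 and its call was lost (edgeR adjusted p = 0.0903). Pgk1, Hk2 and Pfkp passed with that scaling. The other 6 genes had log2 folds from -0.05 (Hk1) to 0.22 (Ldha), none past the threshold. With low-ratio scaling 5 of these turned below 0, at -0.138 for Gpi1, -0.258 for Aldoa, -0.242 for Tpi1, -0.106 for Pkm and -0.099 for Ldha, all above the median of -0.33 over all genes. The labels give 2 settings of temperature and time for the conversion and name tubes for 1 of them. If the other was used for fixed cells, which their wording leaves unclear, it cannot be told apart from the fixation.

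The new-to-total ratio is the deposited estimate of the share of a gene's RNA made during the 2 h of labelling. Averaged over the 8 labelled libraries it was 78.8% for Hk2, at percentile 88.2 of the 5532 genes with at least 100 counts in every labelled library, whose median was 35.33%. All other members lay below that median. Pfkp, outside the test because its counts were too low, had 26.4%, Hk1 18.0%, Ldha 16.0%, Gpi1 15.9%, Pkm 15.1%, Aldoa 14.5%, Pgk1 12.3%, Tpi1 10.8% and Gapdh 9.15%. Gapdh was at percentile 2.3 and Tpi1 at percentile 4.4. Apart from Hk2, the ranges over the libraries overlapped between all neighbours in this order. Compared within a library, Gapdh lay below Tpi1 in all 8, at the closest with 11.13% against 11.38%. The order of the other neighbours below Hk2 changed between libraries and is not resolved.

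In each library the ratio of Hk2 stood far above those of the other genes. For Hk2 in tubes it was 74.3% and 76.1% at the lower dose and 70.2% and 81.0% at the higher. The fixed libraries had 83.3% and 86.0%, then 74.4% and 85.0%. Gapdh, by contrast, ran from 6.51% to 11.1% over the 8 libraries. The 2 hexokinases, which catalyse the same reaction, differed in every library: Hk1 ran from 10.8% to 23.1%, with no overlap with the 70.2% to 86.0% of Hk2. If levels were steady and labelling were complete and immediate, the mean ratios would correspond to half-lives of 0.894 h for Hk2, 6.98 h for Hk1, 7.96 h for Ldha, 12.2 h for Tpi1 and 14.4 h for Gapdh. Those conditions were not tested, and the libraries without 4sU have no ratio to give a background.

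**Figure D3:**
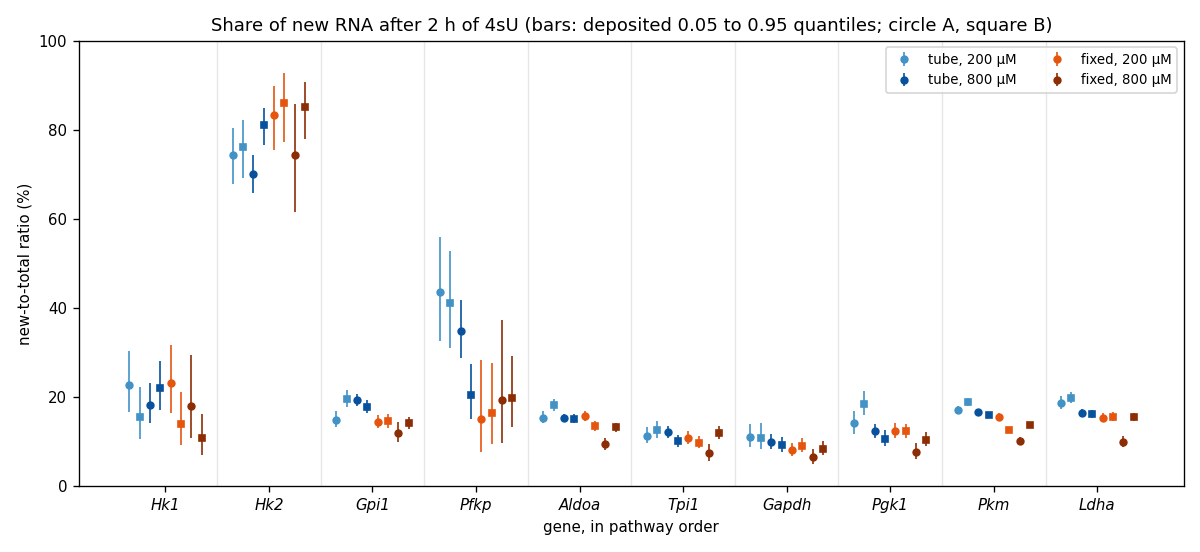
New-to-total ratio of each gene in the 8 labelled libraries, in percent; points are the deposited maximum a posteriori values, bars their 0.05 to 0.95 quantiles, circles library A and squares library B. Hk2 lies between 70.2% and 86.0%, and the 8 genes other than Hk2 and Pfkp lie at or below 23.1%.

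The ratios did not differ past the threshold between procedures or doses. Fixed cells against tubes gave 0 of 9 genes at 200 µM and 0 of 9 at 800 µM, and the dose step gave 0 of 9 in tubes and 0 of 9 in fixed cells, by limma on the logit scale. Over the 5532 genes 0%, 0%, 0% and 0.0181% passed, so the test called almost no gene at all. An unadjusted p under 0.05 was found for 0, 1, 0 and 0 of the 9, the one being Gpi1, and for 19.1%, 20.3%, 8.44% and 16.6% of all genes. DESeq2, a count method, was not run on the ratios. The median difference of the 9 genes in logit units was -0.196 and -0.308 for fixed cells against tubes, close to the -0.189 and -0.306 of all genes. The second pair rests on single libraries: without fixed 800 µM library A it was -0.145 for the 9 genes and -0.132 for all, and without library B -0.449 and -0.49. Hk2 was the one gene of the 9 with a positive difference in both, 0.602 (SE 0.392, limma adjusted p = 0.429) and 0.247 (SE 0.392, adjusted p = 0.737).

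The ratio of Ldha in tubes was 18.8% and 19.9% at the lower dose and 16.4% and 16.2% at the higher. In fixed cells it was 15.4% and 15.6%, then 9.99% and 15.6%. The lowest value is that of fixed 800 µM library A, the library with the lowest median over all genes. Aldoa (9.38%), Gpi1 (12.03%), Pkm (10.1%), Pgk1 (7.69%), Tpi1 (7.37%) and Gapdh (6.51%) were also lowest there. Without library B of that group, which leaves library A alone, 1 gene of the 9 passed against tubes at 800 µM, namely Ldha, against 16.9% of all genes. Pfkp had 43.6% and 41.2% in tubes at 200 µM, 34.9% and 20.5% at 800 µM, and 15% to 19.9% in the 4 fixed libraries. At a count minimum of 20 it could be tested, and the difference at 200 µM was -1.37 in logit units (SE 0.24, limma adjusted p = 0.151).

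Multiplying the level by the ratio splits it into new and old RNA, a calculation chosen after the ratios were seen. New Hk2 RNA was 69.3 ± 9.08 CPM (SD, n = 2) in tubes at 200 µM and 70.4 ± 11.2 at 800 µM, and 45.8 ± 4.39 and 39.3 ± 0.354 in fixed cells. Old Hk2 RNA was 23.0 ± 4.49, 22.5 ± 5.85, 8.37 ± 1.99 and 10.2 ± 4.61 CPM in the same order. For Pgk1 the order of the procedures was the other way round in old RNA, with 150 ± 15 and 153 ± 5.02 CPM in tubes and 246 ± 26.9 and 280 ± 67.1 in fixed cells. New Pgk1 RNA was 29.1 ± 3.75 and 19.9 ± 2.92 CPM in tubes and 34.9 ± 3.40 and 27.3 ± 0.0283 in fixed cells. Old Ldha RNA was 725 and 836 CPM in tubes at 200 µM and 708 and 800 at 800 µM, beside total levels of 715 and 689 without 4sU. In fixed cells it was 794 and 895, then 1072 and 921, beside totals of 801 and 840. It thus lay above both totals in the tube 200 µM and fixed 800 µM groups, and overlapped them in the other groups. CPM are relative to the scaled size of a library and say nothing of RNA amounts per cell.

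**Figure D4:**
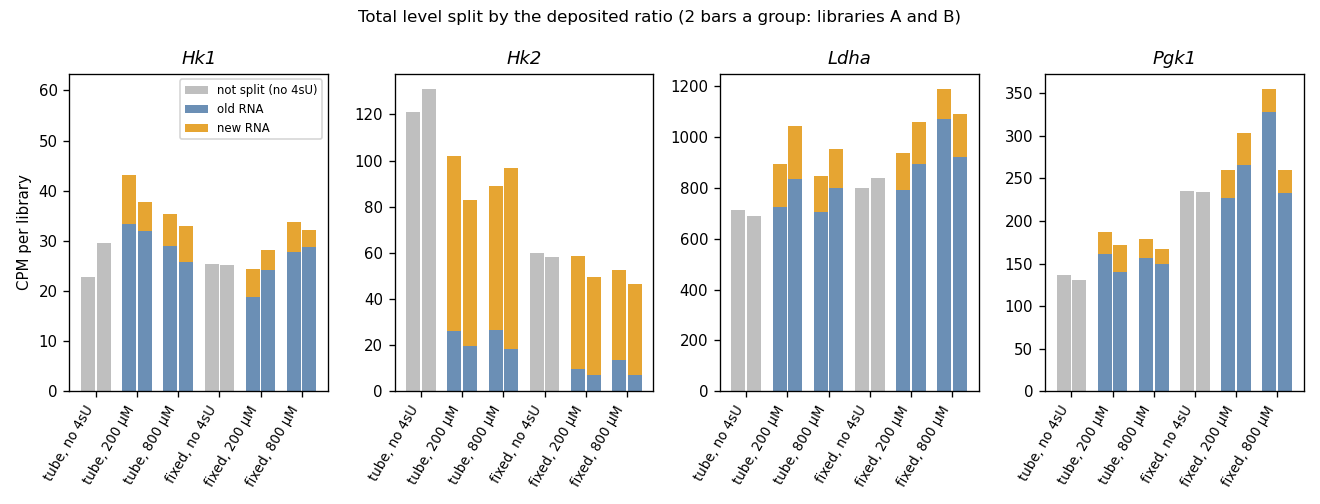
CPM of Hk1, Hk2, Ldha and Pgk1 in each of the 12 libraries, with labelled libraries split by the deposited ratio into new RNA (orange) and old RNA (blue); grey bars are libraries without 4sU, and the bars of a group are libraries A and B. New RNA makes up most of each Hk2 bar and a smaller part of the Hk1, Ldha and Pgk1 bars.

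The remaining enzymes of the pathway were counted from a list of 14 genes in the table, of which 10 were tested. In the 4 comparisons with 4sU the one call was Eno2, an enolase, which fell by 0.87 on the log2 scale at 800 µM in fixed cells (SE 0.17, edgeR adjusted p = 0.0111). Its libraries had 43.4 and 43.2 CPM without 4sU and 19.9 and 27.1 at 800 µM. The fold was -0.62 without labelled library A and -1.12 without labelled library B. Without an unlabelled library it was -0.87 and -0.88, with a standard error of 0.22. Each of these fits leaves 1 library in a group. Eno2 also passed with DESeq2 (adjusted p = 0.0033) and with low-ratio scaling (edgeR adjusted p = 0.0032). Pgam1, the phosphoglycerate mutase, and Eno1, the main enolase, did not pass in any comparison, with log2 folds of 0.45 and 0.25 at 200 µM in tubes (adjusted p = 0.0892 and 0.321). Eno1 and Eno1b had near-equal levels, 330 and 317 CPM against 295 and 288 in tubes without 4sU, and their reads may be shared.

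Of the 17 regulators and transporters found, 14 were tested. Slc2a1, the glucose transporter GLUT1, rose by 0.69 at 800 µM in fixed cells (SE 0.16, adjusted p = 0.025 by edgeR), from 90.7 and 94.0 to 174 and 125 CPM. Its fold was 0.49 without labelled library A and 0.915 without labelled library B. Without an unlabelled library it was 0.67 and 0.72, with a standard error of 0.21. Each of these fits leaves 1 library in a group. Slc2a1 passed with DESeq2 (adjusted p = 0.00263) but not with low-ratio scaling (log2 fold 0.512, edgeR adjusted p = 0.0586). In tubes its fold at 800 µM was 0.16 and did not pass, and the difference between the procedures was 0.53 (SE 0.22, edgeR adjusted p = 0.822). Slc16a1, a lactate and pyruvate transporter, fell by 0.59 at 200 µM in tubes (SE 0.15, edgeR adjusted p = 0.0376). Leaving out 1 of the 4 libraries, which leaves 1 in a group, gave log2 folds of -0.711 to -0.457. Its log2 fold was 0.16 at 800 µM in tubes and 0.57 at 200 µM in fixed cells (SE 0.15, edgeR adjusted p = 0.0835, DESeq2 0.0335). The difference between the procedures at 200 µM was 1.16 (SE 0.21, edgeR adjusted p = 0.147, DESeq2 0.00397). At 800 µM that difference was 0.056 (SE 0.21, edgeR adjusted p = 0.978). Without 4sU, Slc16a1 was already lower in fixed cells than in tubes (log2 fold -0.72, SE 0.15, edgeR adjusted p = 0.00117). These settings for Eno2, Slc2a1 and Slc16a1 were chosen after seeing the data. No gene of pyruvate entry into mitochondria (7 tested), the pentose phosphate pathway (7 tested) or gluconeogenesis and glycogen (8 tested) passed edgeR's test or DESeq2 in a comparison of 4sU against no 4sU. At an unadjusted p under 0.05 there were 1, 1, 0 and 2 genes of pyruvate entry over the 4 comparisons. There were 1, 0, 0 and 3 of the pentose phosphate pathway, and 1, 2, 0 and 0 of gluconeogenesis and glycogen. Of all genes 20.8%, 17.6%, 12.6% and 20.1% had such a p in the same order.

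For fixed cells against tubes without 4sU, 14 genes of these 5 lists passed. They were 2 of 10 other enzymes, 5 of 14 regulators and transporters, 4 of 7 genes of pyruvate entry and 3 of 8 of gluconeogenesis and glycogen. Of all genes 31.4% passed, so the share over the 5 lists is near the background. The first 6 genes named next had the smallest p. Pdk2 (-1.78) and Mpc1 (1.53) also passed, with larger log2 folds but larger p. Mpc2, a subunit of the mitochondrial pyruvate carrier, was higher by 1.21 on the log2 scale, Ldhb, the B subunit of lactate dehydrogenase, by 1.00, and Pdk3, a pyruvate dehydrogenase kinase, by 1.00. Gys1, glycogen synthase, had -1.29, Pck2, the mitochondrial phosphoenolpyruvate carboxykinase, -0.88, and Bsg, the partner of lactate transporters, -0.83. Slc2a1 had -0.52 (SE 0.16, edgeR adjusted p = 0.0194). Of the pentose phosphate genes 0 of 7 passed by edgeR or DESeq2, and 2 had an unadjusted p under 0.05, as did 41.3% of all genes.

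The mean of the 10 genes over the 6 groups, centred in log2 CPM, ran from -0.121 in tubes without 4sU to 0.136 in fixed cells at 800 µM. The 5 genes nearest to that profile among 6461 candidates were Metap2, Tnpo1, Tfrc, Myd88 and Cenpn, with mean absolute differences of 0.022 to 0.0324 over the 6 groups. The mean hides opposite patterns: Hk2 ran from 0.758 in tubes without 4sU to -0.586 in fixed cells at 800 µM, and Pgk1 from -0.643 to 0.541.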

How the data were processed

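One table, deposited by the authors, was used. Its read counts hold decimals (16.2% to 22.0% of values in a library were not whole, tolerance 0.001), so the deposited values were read to be expected counts and were rounded. The new-to-total ratio is, per the file headers, a fraction given for the 8 labelled libraries as a maximum a posteriori value, a posterior mean and 0.05 and 0.95 quantiles. The alpha and beta columns, scores in the deposited table, were not analysed here. STAR 2.7.10b, Bowtie2 2.3.0 and cutadapt were used in roles that the submitters' processing notes, as given here, do not state. Genome build, annotation and ratio tool, not given in the sources used here, are unknown. By gene ID, 15185 genes were found in GENCODE M21 (GRCm38) and 32 were not.

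Genes were kept by filterByExpr (minimum count 10, minimum total 15), which left 11080. The test of counts was edgeR's quasi-likelihood F test (edgeR 4.0.16, R 4.3.3) after TMM scaling, in 1 fit of 12 libraries, with Benjamini-Hochberg adjustment at 0.05 over all genes tested. The fit had 6 residual degrees of freedom and a common biological coefficient of variation of 12.3%. Ratios, kept within 0.001 and 0.999, were tested with limma 3.58.1 (trend) on the logit scale over 5532 genes with at least 100 counts in every labelled library. CPM is the count scaled to the library total multiplied by the TMM factor of that library. DESeq2 1.42.0, other scalings and filters, a replicate block and leaving out each library were alternatives. Near copies were sought with blastn 2.17.0. The scripts were tested on simulated data. The 10 genes and the 5 lists of other glucose genes were chosen with earlier results of these data known. Named genes were all 10 members, up to 6 genes of the lists that passed in a comparison (smallest p first), Pgam1, Eno1 and Slc2a1, and the 5 genes of nearest profile. Libraries of a group differed by more than sampling noise (chi-square per degree of freedom 3.15 to 21.6).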

Additional observations from a re-analysis of the deposited data

How the results depend on the processing

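The count of the 10 genes called in fixed cells against tubes without 4sU stayed at 3 or 4 under every alternative. With 4sU at 200 µM in tubes it was 1 with DESeq2, 3 without a filter and 1 with low-ratio scaling, where 6.84%, 5.69% and 4.83% of all genes passed. At 800 µM in tubes it was 1 with that scaling and 1 with only the compared groups (2.85% and 3.73% of all genes). At 800 µM in fixed cells it was 1 with RLE scaling, 1 with DESeq2, 1 without a filter (3.18%, 6.94% and 5.43% of all genes), and 0 to 4 when a library was left out. For the ratio at 800 µM, fixed against tubes, it was 0 to 1 when a library was left out. Leaving out a library changed no other of these counts past 1.5 times. Such a fit leaves 1 library in a group, so a lower count can come from lost power. Libraries of the same letter did not deviate together across groups (15 pairs of groups, correlation -0.104 to 0.095, 0 over 0.1). This shows no shared shift by letter. It cannot tell whether libraries of a letter were cultured or handled together. A replicate block gave 0 calls among the 10 genes in the 4 comparisons with 4sU and 4 calls in fixed cells against tubes, as without it.

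Of 70 log2 folds, 33 lay within 1 standard error of 0 and 24 of these changed sign under some setting, while 4 of the other 37 did. Of 36 logit differences these were 9 of 16 and 2 of 20. The cause was not tested. The folds after a change of sign are these. RLE scaling gave 0.016 for Pfkp at 200 µM and 0.004 for Tpi1 at 800 µM in fixed cells, and 0.045 for Hk1, 0.022 for Pkm and 0.002 for Tpi1 in the difference at 800 µM. DESeq2 gave 0.017 and 0.004, then 0.045, 0.022 and 0.002. No filter gave 0.001 for Pfkp at 800 µM in tubes. Only the compared groups gave -0.015 for Gapdh at 200 µM and -0.021 for Tpi1 at 800 µM in tubes, and 0.029 for Gpi1 in the difference at 200 µM.

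Low-ratio scaling gave, in tubes, -0.083 for Aldoa and -0.141 for Gapdh at 200 µM, and -0.057 for Aldoa, -0.039 for Gapdh and -0.133 for Tpi1 at 800 µM. In fixed cells it gave -0.063 for Hk1, -0.095 for Pkm and -0.011 for Tpi1 at 200 µM, and -0.056 for Gpi1 at 800 µM. In the differences it gave 0.010 for Gpi1 at 200 µM and -0.022 for Pgk1 at 800 µM. In fixed cells against tubes it gave -0.258 for Aldoa, -0.138 for Gpi1, -0.099 for Ldha, -0.106 for Pkm and -0.242 for Tpi1.

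Leaving out 1 library gave these ranges. In tubes at 200 µM, Gapdh ran from -0.254 to 0.309 and Tpi1 from -0.197 to 0.026. In tubes at 800 µM, Gapdh ran from -0.129 to 0.386, Pfkp from -0.229 to 0.244 and Tpi1 from -0.050 to 0.077. In fixed cells at 200 µM, Hk1 ran from -0.055 to 0.151, Pfkp from -0.284 to 0.209 and Pkm from -0.154 to 0.176. In fixed cells at 800 µM, Gapdh ran from -0.074 to 0.774 and Tpi1 from -0.125 to 0.101. In fixed cells against tubes, Hk1 ran from -0.217 to 0.152. In the difference at 200 µM, Gapdh ran from -0.161 to 0.402 and Gpi1 from -0.141 to 0.034. In that at 800 µM, Gapdh ran from -0.147 to 0.665, Gpi1 from -0.205 to 0.007, Hk1 from -0.207 to 0.163, Pgk1 from -0.133 to 0.224, Pkm from -0.166 to 0.174 and Tpi1 from -0.110 to 0.088.

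For the ratio, in logit units, the dose step in tubes ran from -0.068 to 0.258 for Gpi1, -0.155 to 0.314 for Hk1, -0.255 to 0.343 for Hk2 and -0.188 to 0.016 for Tpi1. The dose step in fixed cells ran from -0.611 to 0 for Hk1, -0.647 to 0.026 for Hk2, -0.503 to 0.005 for Ldha and -0.368 to 0.165 for Tpi1. Fixed against tubes ran from -0.352 to 0.259 for Hk1 at 200 µM, and from -0.090 to 0.584 for Hk2 and -0.449 to 0.084 for Tpi1 at 800 µM.

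Depth limits Pfkp most among the 10 genes, at 61 to 186 counts a library, and it had too few counts for the main test of the ratio.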
